A study of Mus musculus with 6 samples.

Results

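The 37 genes described here encode the neuronal cytoskeleton, the synaptic vesicle and its fusion machinery, with a few adhesion and nuclear proteins used as marks of neurons. They were chosen by name, and a probe was taken where the platform annotation gives it a single symbol on the list. This found 40 of the 34967 gene probes, for 31 of the 37 genes, among 18069 genes with a probe of a single symbol. Tubb2a, Tubb2b, Tuba1a, Map1a, Gap43 and Vamp2 had no such probe. Of these 6 genes, 5 share a probe with another gene and are given no value.

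The samples were neurosphere cultures, floating clusters of neural precursor cells, from the dorsal telencephalon of C57BL/6 mouse fetuses at embryonic day 12.5. In 3 samples the cells had been transfected with an antisense oligonucleotide of 2'-O-methyl chemistry that blocks miR-335 (2' O Me-335). The 3 control samples had received a nonsense oligonucleotide of the same chemistry (2' O Me-EGFP). All 6 were grown in serum-free medium with bFGF and EGF (20 ng/ml each) and LIF (0.15 ng/ml), and the labels give the time of treatment as 24 with no unit. RNA was read on 6 single-colour arrays, 1 per sample, and an intensity of 1 stands for the median spot of its array. What was repeated between replicates is not stated, so the p-values cover no more than the spread among 6 samples, which may be technical.

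A neuron builds its axon and dendrites from microtubules, polymers of alpha- and beta-tubulin. Microtubule-associated proteins stabilise them, stathmins bind free tubulin dimers, and neurofilaments later fill the axon. At the synapse, vesicles docked by Rab3 proteins fuse when the vesicle SNARE pairs with syntaxin and SNAP-25, with synaptotagmin as calcium sensor and complexin as clamp. Dividing precursors carry little of the synaptic set, and many of its genes are held silent there by the repressor REST.

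A microRNA lowers its targets by pairing its seed, bases 2 to 8, with their mRNA. Both mature strands of the blocked microRNA are shown with the seed in capitals, from RefSeq (GRCm38.p6, plus strand, chr6:30741314-30741336 and chr6:30741354-30741375), since the labels do not say which strand was targeted.
mmu-miR-335-5p: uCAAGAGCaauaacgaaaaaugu
mmu-miR-335-3p: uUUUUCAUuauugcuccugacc
Neither microRNA levels nor mRNA sequences were analysed here, so the block has no check and seed sites in the members were not searched.

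Promoter windows are shown for 3 members: Stmn3 and Syt11, whose values on each array are given below, and Syn1, which holds one arm of the REST site. The RefSeq table (GRCm38.p6) held 27 windows for 23 of the 37 genes. The 250 bases before the start were searched on both strands for TTCAGCACC (the left arm of the REST site), TGACGTCA (the cAMP response element), GGGCGG (the GC box) and CAGATG (an E-box). Matches are in capitals, did not overlap each other in the windows shown, and are a description only.
Stmn3: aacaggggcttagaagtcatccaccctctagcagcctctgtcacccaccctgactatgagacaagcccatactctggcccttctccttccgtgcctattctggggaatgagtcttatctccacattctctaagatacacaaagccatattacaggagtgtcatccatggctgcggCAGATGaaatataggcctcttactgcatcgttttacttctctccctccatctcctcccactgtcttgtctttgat
Syt11: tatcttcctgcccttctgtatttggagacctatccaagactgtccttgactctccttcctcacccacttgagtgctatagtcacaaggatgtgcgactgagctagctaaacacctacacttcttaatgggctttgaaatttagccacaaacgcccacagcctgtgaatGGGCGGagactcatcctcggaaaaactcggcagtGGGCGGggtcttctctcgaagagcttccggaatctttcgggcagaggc
Syn1: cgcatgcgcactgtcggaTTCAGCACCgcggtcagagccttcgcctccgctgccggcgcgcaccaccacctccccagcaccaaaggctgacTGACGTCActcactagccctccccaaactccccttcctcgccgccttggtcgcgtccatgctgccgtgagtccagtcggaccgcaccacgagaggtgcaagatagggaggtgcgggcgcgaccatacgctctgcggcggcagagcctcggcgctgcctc
They lie on the minus strand at chr2:181314501-181314750 (Stmn3), chr3:88772600-88772849 (Syt11) and chrX:20920919-20921168 (Syn1). The REST arm was found in 1 of 27 member windows and in 0.301% of all 32851 windows. The GC box was found in 18 of 27 against 32.7% of all, the E-box in 5 of 27 against 14.4%, and the cAMP element in 2 of 27 against 1.55%.

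The cultures had the markers of cortical precursors: all 9 measured of 10 listed, Sox2, Nes, Pax6 and Fabp7 among them, were above background on all 6 arrays. Background was judged from 320 negative control spots: an intensity counted as above it where it exceeded their median by 3 scaled median absolute deviations, a limit between 0.492 and 0.692 on the 6 arrays. The limit was 0.692, 0.563 and 0.492 on anti-miR-335 replicates 1, 2 and 3, against 0.656, 0.630 and 0.645 on the controls. A dim probe of equal intensity could thus count on anti-miR-335 replicates 2 and 3 and not on a control. Counts above background by group are therefore no comparison of expression. By these limits 59.9% to 67.3% of gene probes were above background on each array. Of the other cell types listed, 0 of 6 endothelial and 0 of 6 mesenchymal probes were above background on all arrays, against 1 of 5 microglial (Trem2), 7 of 10 astrocyte and 3 of 6 oligodendrocyte probes. Not above background on any array were 2 of 5 microglial probes (Ptprc and Itgam), 3 of 6 endothelial (Pecam1, Cdh5 and Flt1) and 5 of 6 mesenchymal (all but Pdgfrb). The others were above it on some arrays. Kdr was so on 2 anti-miR-335 and 3 control arrays, Tek on 3 and 0, and Cldn5 on 1 and 2. Cx3cr1 was so on 3 and 2, Aif1 on 1 and 0, and Pdgfrb on 2 and 1. The summed intensity of the precursor list was 322 to 355 on the anti-miR-335 arrays and 283 to 311 on the controls, without overlap. Its brightest gene was Fabp7, with means of 110 and 90.1. The list did not move as a set: 6 of 9 probes had a log2 difference above 0, and only Fabp7 and Hes5 were higher without overlap. Nes, Msi1 and Emx2 had differences under 0, with overlap. The astrocyte sum was 132 to 157 on the anti-miR-335 arrays and 125 to 140 on the controls, with S100b as its brightest gene. Within that list Aqp4 and Gja1 were higher without overlap, Aqp4 (probe GE1436526) averaging 16.9 ± 1.67 on the anti-miR-335 arrays and 10.5 ± 0.908 on the controls (SD, n = 3 each), and Gja1 13.2 ± 4.1 and 5.94 ± 1.43. The microglial sum, 5.13 to 5.68 against 6.40 to 6.72, was lower without overlap, as was Trem2, its brightest gene (3.27 ± 0.126 and 4.85 ± 0.221), while Cx3cr1 was higher without overlap (1.09 ± 0.271 and 0.724 ± 0.122). The sums overlapped for endothelial, mesenchymal and oligodendrocyte markers, at 1.86 to 3.29 against 2.66 to 3.53, 1.69 to 1.92 against 1.52 to 2.08, and 23.9 to 50.3 against 15.2 to 39.0. Of the oligodendrocyte list, Pdgfra, a gene of its precursors, was higher without overlap on probe GE35871 (15.9 ± 2.39 and 7.95 ± 1.46). Its second probe, GE119841, was above background on 1 array and had overlapping groups (0.392 ± 0.183 and 0.309 ± 0.0808). Sox10 was also higher without overlap (3.29 ± 0.139 and 2.55 ± 0.301). Olig1 lay at 18.6, 26.8 and 1.61 on the anti-miR-335 arrays, against 1.93, 24.3 and 25.9 on the controls, so anti-miR-335 replicate 3 and control replicate 1 stood apart. Olig2 was lowest on the same arrays, at 1.35, 1.35 and 0.394 against 0.515, 1.72 and 1.47. None of these markers passed the threshold over all arrays, and those that passed without control replicate 1 are given in the next paragraph. Their part in the results was not tested, and in such bulk samples fewer cells of a type and less RNA per cell cannot be told apart.

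Control replicate 1 stood apart from control replicates 2 and 3. When limma estimated array weights, it received 0.37, the lowest of the 6. Without it 1100 of 34654 probes passed the threshold, where 0 of 34847 passed with it. Of the markers, Hes5, Pax6, Slc1a3, Aqp4 GE1436526, Gja1 and Pdgfra GE35871 then passed with higher values, and Trem2 with lower values. These were 3 of 9 precursor, 2 of 10 astrocyte, 1 of 6 oligodendrocyte and 1 of 5 microglial probes, against 2.27% of all probes higher and 0.906% lower. The log2 difference of Sox2 turned from 0.125 ± 0.234 (SE) to -0.138 ± 0.183. A log2 difference given below for a detected probe is given both ways where it turns in sign or moves by over 1.5 times without control replicate 1.

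Most of the neuronal genes could be read in these precursor cultures. Of 40 probes, 26 were above background on all 6 arrays, another 2 on all 5 arrays with a value, 6 on some arrays and 6 on none. Of all 34847 probes tested, 17843 were above background on all 6 arrays, so such detection is common and not particular to these genes. All 3 anti-miR-335 arrays were above background for 26 probes, and all 3 control arrays for those 26 and for Cplx1, Ncam1 GE32914 and Stmn3 GE1417801. The last pair of probes had no value on anti-miR-335 replicate 3, and Cplx1 lay at 0.442 on anti-miR-335 replicate 1, under the limit there. Counted by gene, 22 of 31 had a probe above background on all 6 arrays.

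Several members were not detected on any array. The neurofilament subunit genes Nefl, Nefm and Nefh, which build the caliber of large axons, lay between 0.167 and 0.446 and were not above background on any array. Neither were Stmn2, the stathmin of growing axons, or Syt4, a synaptotagmin of dense-core vesicles. The Tubb3 probe GE1544844 was also under the limit on all arrays, while the other Tubb3 probe was above it on all. Rbfox3, the gene of the neuronal nuclear antigen NeuN, and Map1b GE34049 were above background on 1 anti-miR-335 array and 0 control arrays, L1cam on 1 and 2, Stmn4 on 2 and 1, and Snap25 GE135149 on 2 and 1. These counts leave only bounds for the dim side, and for Map1b GE34049 and Rbfox3 the bound lay under 1-fold, so no fold is given.

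**Figure D1:**
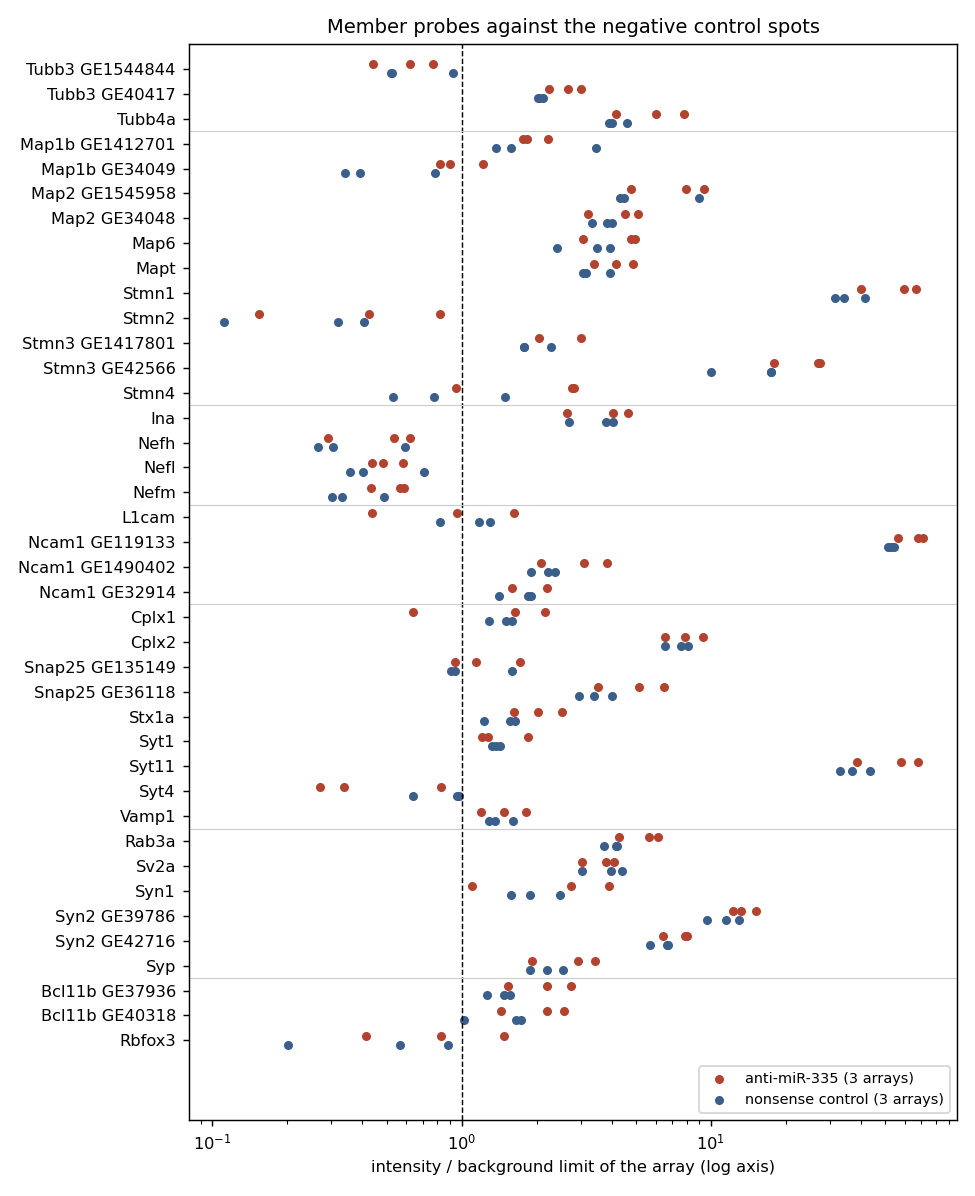
Intensity of each of the 40 member probes divided by the background limit of its array (log axis), 1 point per array, anti-miR-335 in red and control in blue, in blocks of tubulins, microtubule binding proteins, intermediate filaments, adhesion, fusion, vesicle and nuclear proteins. The dashed line is the limit; Nefl, Nefm, Nefh, Stmn2 and Syt4 lie left of it on all 6 arrays.

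The comparison asked whether these genes differ when miR-335 is blocked. No member passed: by limma 0 of 40 probes had an adjusted p under 0.05, as did 0 of all 34847 probes (0%), and the smallest adjusted p of a member was 0.444, for Stmn1. Differences were small. Among the 26 probes above background on all 6 arrays, 25 differed by less than 0.5 on the log2 scale, as did 96.7% of the 17843 such probes on the arrays. The median log2 difference of the 40 probes was 0.16, against 0.01 over all probes tested, and 28 of 40 were above 0, against 51.9% of all. An unadjusted p under 0.05 was reached by 6 probes that were higher after anti-miR-335 (4.91% of all probes) and by 1 with lower values (4.17%). Group values did not overlap for 4 of 40 probes with higher values (7.59% of all) and 1 of 40 with lower values (7.37%). The lower one, Syt4, was under background on all arrays. Among the 26 probes above background throughout, the counts were 4 higher and 0 lower, against 9.70% and 8.46% of all such probes. These counts are small, and their difference from the shares was not tested.

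**Figure D2:**
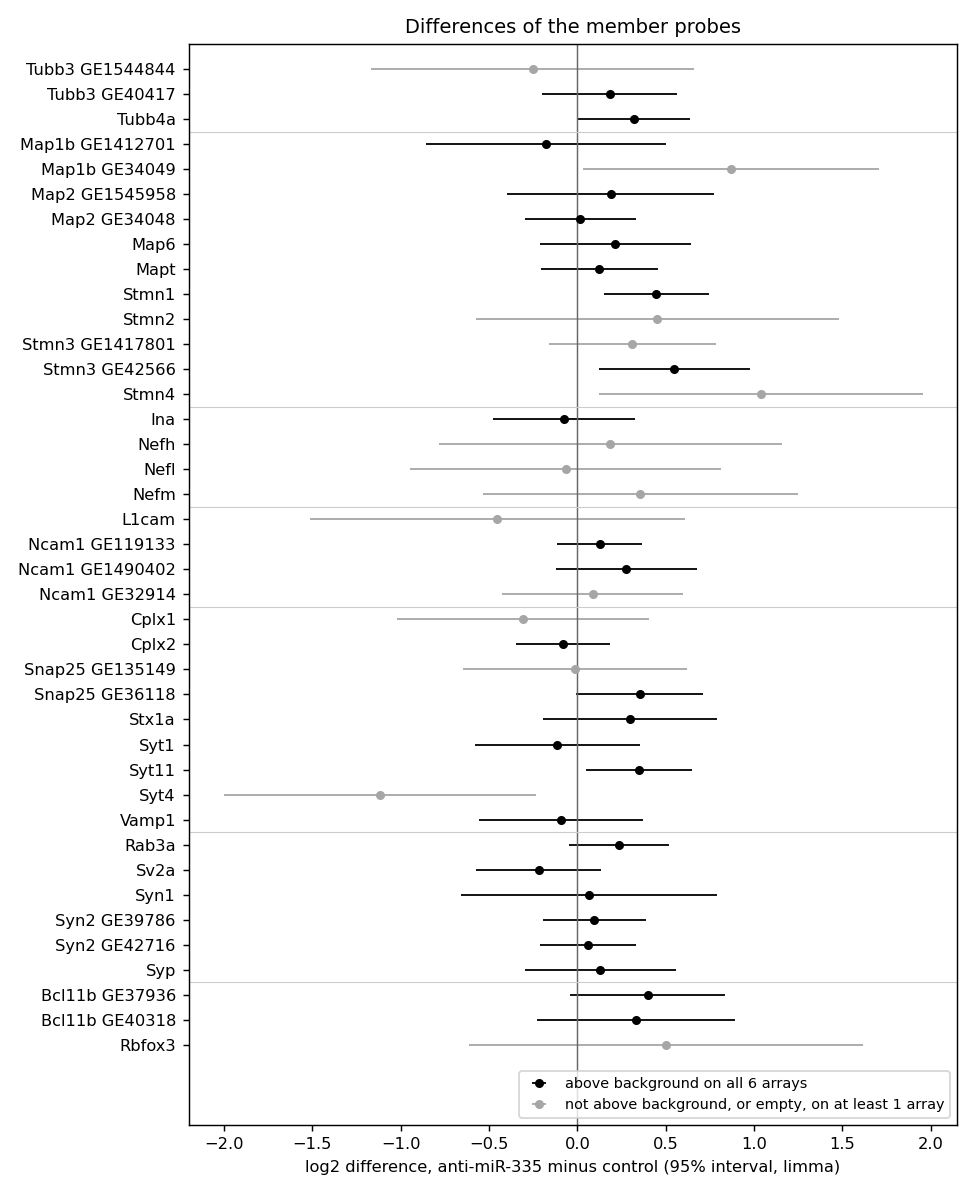
Log2 difference of each member probe, anti-miR-335 minus control, with the 95% interval from limma, in the same blocks. Black probes were above background on all 6 arrays and, Stmn3 GE42566 at 0.55 apart, lie within 0.5 of 0; the intervals of the grey, dim or incomplete probes are mostly wider. For probes under the background limit on all arrays of a group the point is the fitted value and no measured fold.

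Among beta-tubulins, Tubb4a, a neuronal and oligodendroglial isotype, had an intensity of 2.88, 3.39 and 3.84 on anti-miR-335 replicates 1, 2 and 3, against 2.55, 2.90 and 2.60 on the controls. Only anti-miR-335 replicate 1 reached into the control range. The log2 difference was 0.32 ± 0.14 (SE; adjusted p = 0.546 by limma). Tubb3, the neuron-specific isotype known as the TuJ1 antigen, lay at 1.55, 1.70 and 1.31 against 1.39, 1.28 and 1.33, with overlap and a log2 difference of 0.18 ± 0.17. Its interval, from -0.20 to 0.56, leaves room for differences of either sign.

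Of 11 probes for microtubule-binding proteins 10 had a log2 difference above 0, with a median of 0.31, and the stathmins Stmn1, Stmn3 and Stmn4 were the ones given by the naming rule. Stmn1, the stathmin of proliferating and immature neural cells, lay at 27.6, 33.5 and 32.7 on the anti-miR-335 arrays, against 27.3, 21.5 and 20.3 on the controls. The groups did not overlap, although control replicate 1 lay just under anti-miR-335 replicate 1. The log2 difference was 0.45 ± 0.13 (adjusted p = 0.444), and without control replicate 1 it was 0.58 ± 0.11 (adjusted p = 0.0282), the only member to pass in that fit, in which 2.27% of all probes passed with higher and 0.906% with lower values. It also passed where arrays were weighted (0.55, adjusted p = 0.039), as did 0.910% and 0.451% of all probes.

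Stmn3, a stathmin found in neurons, lay at 12.4, 15.5 and 13.2 on the anti-miR-335 arrays, against 6.56, 11.0 and 11.3 on the controls, on probe GE42566. The groups did not overlap, and the lowest value was that of control replicate 1. The log2 difference of 0.55 ± 0.19 (adjusted p = 0.481) came to 0.30 ± 0.11 without that array (adjusted p = 0.17), so that array, the lowest control for Stmn3, was the highest for Stmn1. The second Stmn3 probe, read on 2 anti-miR-335 arrays, gave 1.41 and 1.70 against 1.17, 1.44 and 1.15, and a log2 difference of 0.31 ± 0.21.

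Stmn4, the brain-restricted stathmin, lay close to background at 0.658, 1.59 and 1.36, against 0.347, 0.939 and 0.502 in the controls. Replicates 2 and 3 of the anti-miR-335 group were above all controls, and replicate 1 was not. The log2 difference was 1.04 ± 0.41 (adjusted p = 0.51), and 0.71 ± 0.40 without control replicate 1. Stmn2 lay between 0.0716 and 0.463, all below background, and no fold is given.

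The structural microtubule-associated proteins were Mapt, Map6, Map2 and Map1b, and the values of several moved with control replicate 1. Mapt, the gene of tau, lay at 2.35, 2.34 and 2.39 on the anti-miR-335 arrays, against 2.58, 1.98 and 1.99. Control replicate 1 was the highest of the 6 and replicates 2 and 3 the lowest, with a log2 difference of 0.13 ± 0.15, and 0.25 ± 0.12 without control replicate 1. Map6, which makes microtubules cold-stable, had the opposite order within the controls, at 2.12, 2.80 and 2.35 against 1.59, 2.49 and 2.26, and a difference of 0.22 ± 0.19, which came to 0.02 ± 0.15 without that array.

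For Map2, the dendritic microtubule-associated protein, probe GE34048 gave 2.43 ± 0.171 on the anti-miR-335 arrays and 2.40 ± 0.247 on the controls (SD, n = 3 each), a difference of 0.02 ± 0.14, or 0.09 ± 0.13 without control replicate 1. Probe GE1545958 gave 3.32, 4.46 and 4.60 against 5.87, 2.72 and 2.88. On it, control replicate 1 was the highest array of all, and the controls were otherwise lower. The log2 difference of this probe was 0.19 ± 0.26 over all arrays, 0.55 ± 0.15 without control replicate 1 (adjusted p = 0.0801), and 0.69 ± 0.09 without both replicate 1 arrays (adjusted p = 0.0249). The platform annotation and the scanner output give different accessions for this probe, as for 8 of the 40 member probes, Syt11 among them, and which fragment it reads was not settled here. Map1b, an early axonal protein, had a difference of -0.18 ± 0.31 on its detected probe, where control replicate 2 stood out at 2.18 against 0.899 to 1.22 on the others, and -0.42 ± 0.29 without control replicate 1. Its dim probe, under the limit on all controls, reached an unadjusted p of 0.0433, and no fold is given for it.

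Of the 4 neuronal intermediate filament genes among the members, Ina, alpha-internexin, the first of them to appear in development, was the only one above background. It lay at 1.83, 2.28 and 2.28 on the anti-miR-335 arrays, against 1.77, 2.39 and 2.62 on the controls. The groups overlapped fully, replicate 1 being the lowest in each, and the log2 difference was -0.08 ± 0.18 with an interval from -0.48 to 0.33, or -0.24 ± 0.15 without control replicate 1.

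Ncam1, the neural cell adhesion molecule, lay at 38.8, 39.8 and 33.2 on the anti-miR-335 arrays, against 34.5, 32.5 and 35.2 on probe GE119133. Anti-miR-335 replicate 3 fell inside the control range, and the difference was 0.13 ± 0.11. The probe described in the scanner output as the muscle-specific domain gave 0.28 ± 0.18, and that for the 3' end of the long isoforms 0.09 ± 0.23 on the 5 arrays with a value, or -0.04 ± 0.21 without control replicate 1. L1cam, the axonal adhesion molecule, lay at 0.662, 0.912 and 0.215 against 0.772, 0.516 and 0.837, around the background limit, with a difference of -0.45 ± 0.48.

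**Figure D3:**
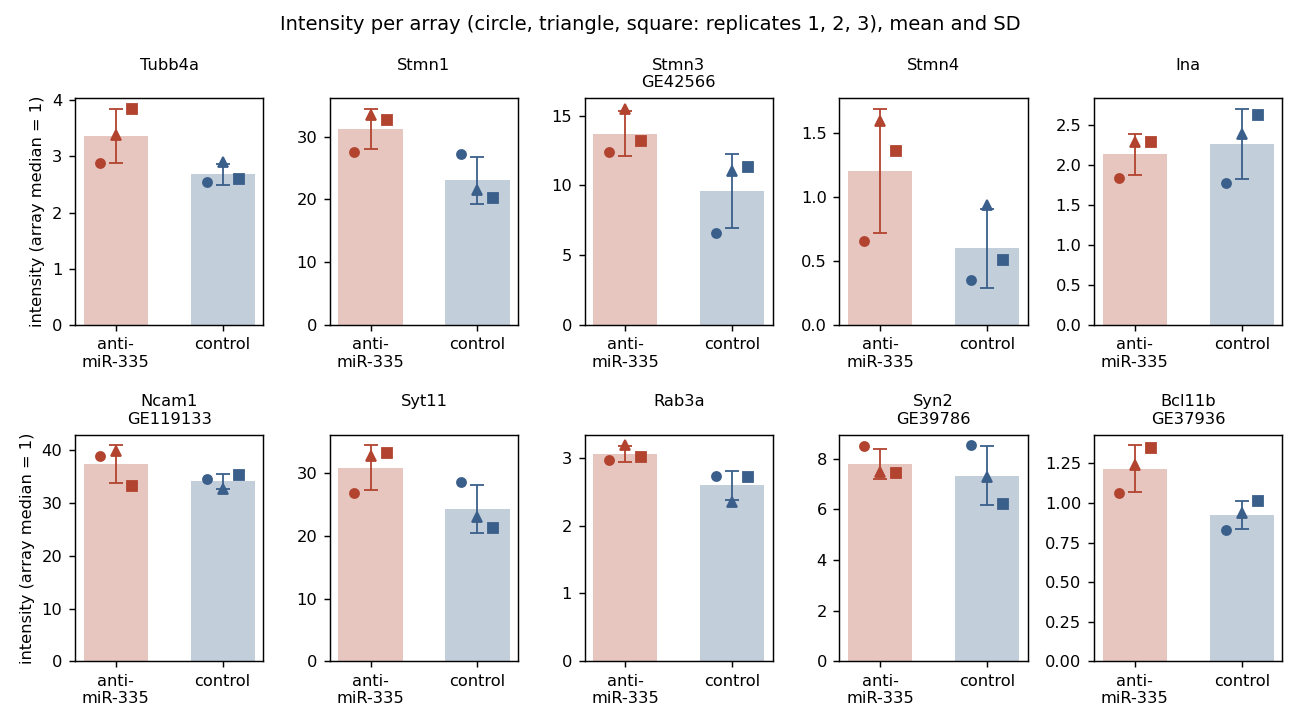
Intensity in units of the array median (linear axes from 0) for the 10 probes given by the naming rule, anti-miR-335 left and control right; bars are means, lines SD (n = 3 each), and circles, triangles and squares replicates 1, 2 and 3. The groups do not overlap for Stmn1, Stmn3, Rab3a and Bcl11b.

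The fusion machinery showed no common direction: 3 of its 9 probes were above 0, with a median log2 difference of -0.08. Syt11, a synaptotagmin that does not bind calcium, lay at 26.8, 32.7 and 33.2 on the anti-miR-335 arrays, against 28.6, 23.1 and 21.3 on the controls. The replicate 1 arrays lay close together, with the control higher, while the others were apart. The log2 difference was 0.35 ± 0.13 (adjusted p = 0.504), 0.47 ± 0.11 without control replicate 1 (adjusted p = 0.0526), and 0.57 ± 0.08 without both replicate 1 arrays (adjusted p = 0.0281). In that last fit 3 members passed, Stmn1 and Map2 GE1545958 being the others, and 3.52% of all probes passed with higher and 1.05% with lower values.

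Snap25, the plasma membrane SNARE, lay at 2.44, 2.89 and 3.19 on the anti-miR-335 arrays, against 1.94, 2.14 and 2.59 on probe GE36118. Control replicate 3 overlapped with anti-miR-335 replicate 1, and the difference was 0.35 ± 0.16 (unadjusted p = 0.0535, adjusted p = 0.557). The second Snap25 probe, close to background, gave -0.01 ± 0.29, or -0.12 ± 0.31 without control replicate 1. Its partner Stx1a, syntaxin 1A, had a difference of 0.30 ± 0.22 on 1.12, 1.42 and 0.993 against 1.07, 0.777 and 1.01.

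The other members of this group had differences under 0 over all arrays, but without control replicate 1 those of Cplx2 (0.001 ± 0.10) and Vamp1 (0.02 ± 0.22) were not. Cplx2, a complexin, gave 4.51, 4.43 and 4.58 on the anti-miR-335 arrays, against 5.33, 4.78 and 4.24, a difference of -0.08 ± 0.12. Its interval, from -0.35 to 0.19, is among the narrower ones here. Cplx1 gave -0.31 ± 0.32, Syt1, the fast calcium sensor, -0.12 ± 0.21, and Vamp1, a vesicle SNARE, -0.09 ± 0.21. Syt4 lay at 0.234, 0.153 and 0.406 against 0.419, 0.613 and 0.617. Its groups did not overlap, but all 6 values were below background, so no fold is given (unadjusted p = 0.018, adjusted p = 0.484).

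Of 6 vesicle protein probes 5 had a log2 difference above 0, with a median of 0.08. Rab3a, the GTPase that tethers vesicles, had separate groups, at 2.97, 3.18 and 3.01 on the anti-miR-335 arrays, against 2.73, 2.35 and 2.71 on the controls. The gap between the groups was smaller than the range of the controls. The log2 difference was 0.24 ± 0.13 (unadjusted p = 0.0951, adjusted p = 0.623). Sv2a, a vesicle glycoprotein, went the other way at 2.11, 2.13 and 2.01 against 2.00, 2.51 and 2.84, with overlap through control replicate 1 and a difference of -0.22 ± 0.16, or -0.36 ± 0.13 without that array (adjusted p = 0.168).

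The synapsins, which tie vesicles to actin, and synaptophysin showed small differences over all arrays. Syn2 lay at 8.49, 7.47 and 7.45 on the anti-miR-335 arrays, against 8.53, 7.27 and 6.21 on probe GE39786 (0.10 ± 0.13), and its second probe gave 0.06 ± 0.12. Both replicate 1 arrays were the higher ones of their group on the first probe. Syn1, whose promoter holds the REST arm shown above, gave 0.760, 1.55 and 1.92 against 1.63, 0.998 and 1.21, and the spread within the anti-miR-335 group was wider than the difference of 0.07 ± 0.33. Syp, synaptophysin, lay at 1.32, 1.65 and 1.69 against 1.68, 1.18 and 1.42 (0.13 ± 0.19). Without control replicate 1 these differences were 0.21 ± 0.11 and -0.003 ± 0.11 for the probes of Syn2, 0.26 ± 0.34 for Syn1 and 0.25 ± 0.19 for Syp, and none passed.

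Bcl11b, the gene of CTIP2, a transcription factor of deep-layer cortical neurons, lay at 1.06, 1.24 and 1.35 on the anti-miR-335 arrays, against 0.828, 0.934 and 1.01 on the controls. The groups did not overlap on this probe, GE37936, and the log2 difference was 0.40 ± 0.20 (unadjusted p = 0.0709, adjusted p = 0.59). The second Bcl11b probe had overlapping groups at 1.0, 1.24 and 1.27 on the anti-miR-335 arrays, against 1.14, 0.646 and 1.07, with a difference of 0.33 ± 0.25. Rbfox3 lay at 0.286, 0.467 and 0.725 on the anti-miR-335 arrays, against 0.577, 0.127 and 0.365 on the controls, with overlap.

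The members did not follow control replicate 1 in one direction. Of the 26 probes above background on all 6 arrays, that array was the highest in 6 and the lowest in 9, where over all 17843 such probes it was the highest in 31.3% and the lowest in 14.8%. Relative to the mean of control replicates 2 and 3, the median member lay higher by 0.10, 0.30 and 0.21 on anti-miR-335 replicates 1, 2 and 3 and by 0.16 on control replicate 1 (log2). The same medians over all such probes were 0.02, 0.12 and 0.07 for the anti-miR-335 arrays and 0.11 for control replicate 1. By these medians anti-miR-335 replicate 1 lay below control replicate 1, but for the members the order depended on the reference. Relative to the mean of all 3 controls, the member medians were 0.111 for anti-miR-335 replicate 1 and 0.108 for control replicate 1. Those of all such probes were -0.014 and 0.073.

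**Figure D4:**
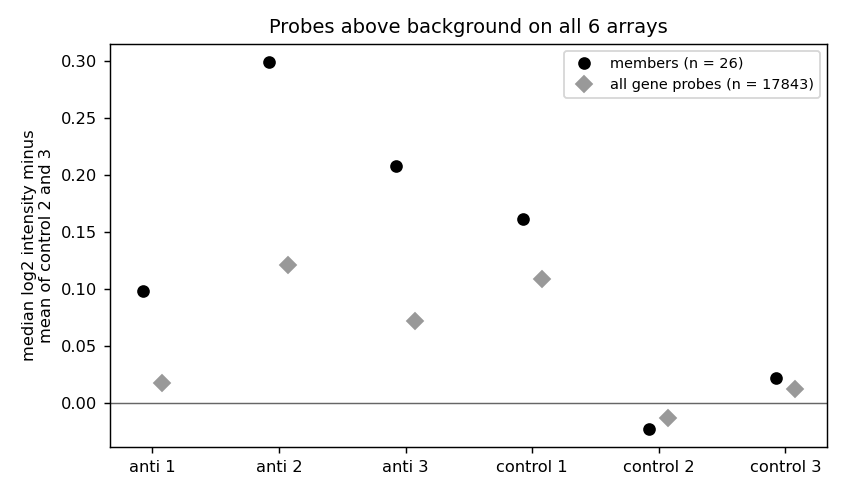
Median log2 intensity per array, relative to the mean of control replicates 2 and 3, for the 26 member probes (black) and all 17843 gene probes (grey) above background on all 6 arrays. Control replicate 1 at 0.16 lies between anti-miR-335 replicates 1 (0.10) and 3 (0.21) for the members.

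Relatives of the members, listed by function, had 0 probes past the threshold in either direction. The counts below stand beside these shares of all probes: 7.59% higher and 7.37% lower without overlap, and 4.91% and 4.17% at an unadjusted limma p under 0.05. Other tubulins (12 of 15 genes, 13 probes) had a median log2 difference of 0.09, with groups that did not overlap for 2 higher and 2 lower probes and an unadjusted p under 0.05 for 2 higher and 1 lower. Tuba4a, an alpha-tubulin, averaged 8.30 ± 1.59 on the anti-miR-335 arrays and 5.61 ± 0.614 on the controls (SD, n = 3 each), a difference of 0.55 ± 0.15 (adjusted p = 0.414). Tubb6 averaged 5.25 ± 0.853 and 7.17 ± 2.11, a difference of -0.42 ± 0.21, or -0.66 ± 0.15 without control replicate 1. Tuba3a averaged 0.790 on the anti-miR-335 arrays and 0.355 on the controls, where it was under the background limit throughout. The observed ratio of its group means, taken on the log2 scale, was at least 1.23-fold, a bound that carries no sampling error (adjusted p = 0.394 by limma).

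Other microtubule-binding proteins (24 of 26 genes, 28 probes) had a median of 0.14, with 3 higher probes and 0 lower ones without overlap, and 2 and 0 at an unadjusted p under 0.05. Mapre2 and Mapre1, end-binding proteins that track growing plus ends, differed by 0.41 ± 0.12 and 0.27 ± 0.11. Map10 differed by -0.81 ± 0.45 on values around the background limit. Other intermediate filament genes (10 of 10) had a median of 0.07 with 1 higher and 1 lower probe without overlap and 1 and 0 at an unadjusted p under 0.05, and none of the 3 named, Gfap, Nes and Lmnb1, had groups that did not overlap (0.41 ± 0.24, -0.15 ± 0.11 and 0.20 ± 0.14). Without control replicate 1 Gfap differed by 0.61 ± 0.22 and Lmnb1 by 0.06 ± 0.11.

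Other SNARE and fusion genes (42 of 44 genes, 49 probes) had a median of 0.06, with 6 higher and 3 lower probes without overlap, and 6 and 2 at an unadjusted p under 0.05. Cplx3, a complexin, averaged 21.0 ± 1.33 on the anti-miR-335 arrays and 28.1 ± 1.34 on the controls (SD, n = 3 each), a difference of -0.42 ± 0.10 (adjusted p = 0.394). Vamp7, a SNARE of late endosomes and neurite growth, averaged 11.3 ± 0.410 against 8.56 ± 1.68, a difference of 0.42 ± 0.14, and Stx18 of the endoplasmic reticulum differed by 0.33 ± 0.13.

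Other vesicle and active zone genes (31 of 33 genes, 42 probes) had a median of 0.15, with 7 higher and 3 lower probes without overlap, and 4 and 1 at an unadjusted p under 0.05. Sncb, beta-synuclein, averaged 12.0 ± 0.449 on the anti-miR-335 arrays and 15.8 ± 0.814 on the controls (SD, n = 3 each), a difference of -0.39 ± 0.10 (adjusted p = 0.394). Rab3c averaged 0.908 and 0.451, with all controls under the background limit, an observed ratio of at least 1.41-fold by the same kind of bound (adjusted p = 0.417 by limma). Syn3, the third synapsin, read on 2 anti-miR-335 arrays, differed by 0.60 ± 0.20. Without control replicate 1, of the relatives named here Tuba4a, Tubb6, Mapre2, Vamp7, Cplx3, Sncb and Rab3c passed, with adjusted p between 0.0233 and 0.0486, each in the direction given here. They had been named for the smallest p of their lists, and 2.27% of all probes passed with higher and 0.906% with lower values in that fit.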

How the data were processed

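The authors deposited spot intensities scaled to the median of their array (global median normalization, per the labels). The scanner headers give CodeLink Expression Analysis, version 4.1.0.29054. For the replicate 1 arrays the scanner output was compared: 36032 (anti-miR-335) and 35976 (control) deposited intensities, all of those present in both, equalled its normalized intensity within 0.0001. Gene symbols came from the platform annotation, and no probe with several symbols was named. Before log2, intensities below 0.163, the 5th percentile of positive ones, were set to that floor. The test was limma's (version 3.58.1, R 4.3.3; lmFit and eBayes with an intensity trend, two-sided, no covariate). Benjamini-Hochberg adjustment ran over the 34847 gene probes measured at least 2 times in each group, with 0.05 as threshold. The script was tested on simulated data.

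The members, the lists and the tests were chosen with earlier results of these data known. Per-array values are given for members above background on at least 2 arrays of a group that had an unadjusted p under 0.05 or groups without overlap, and for the probe of highest mean intensity in each role. Of each related list, up to 3 genes of smallest p are named, by the same limit on background. Members named beyond this rule were chosen after their values were seen.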

Additional observations from a re-analysis of the deposited data

How the results depend on the processing

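The number of arrays, 3 per group, limits the precision, and probes near the negative control spots have little more than a bound. With a replicate block, with a lower or higher floor, without dim probes, and without the trend, 0 member probes and 0 of all probes passed by limma. The replicate block gave a median log2 difference of 0.174 and changed no call. Same-numbered arrays did not deviate together (correlations of -0.231, 0.0388 and -0.255 over 17843 probes). These correlations cannot show whether same-numbered arrays shared a preparation, which is not stated. Quantile normalization gave 1 call over all probes and 0 among members. Array weights gave 474, of which 1 was a member, Stmn1 (adjusted p = 0.039, 0.910% of all probes passing upward). Leaving out an array or a replicate pair gave 0 to 1571 calls over all probes and 0 to 3 among members, with 1100 and 1 without control replicate 1 and 1571 and 3 without the replicate 1 pair. The members' median ranged from 0.046 (without the replicate 2 pair) to 0.252 (without control replicate 1), against 0.155 over all arrays. Member probes without overlap numbered 5 to 23 over these fits and 6 after quantile normalization. With fewer arrays, more of all probes have separate groups: without control replicate 1 it was 10 higher and 3 lower of 40, against 21.3% and 14.6% of all probes, and without the replicate 1 pair 20 and 3, against 30.2% and 21.2%. Ina ranged from -0.243 to 0.041 and Syn2 GE39786 from -0.016 to 0.212, changing sign, while Stmn1, Stmn3, Stmn4, Syt11, Tubb4a, Rab3a, Bcl11b and Ncam1 GE119133 kept theirs in all these fits. Scanner intensities with normexp exist for the replicate 1 pair alone, without a test: Stmn1 was 0.066, Stmn3 0.887, Stmn4 0.326 and Syt11 -0.038. The deposited intensities of the same pair gave 0.016 for Stmn1, 0.919 for Stmn3, 0.921 for Stmn4 and -0.091 for Syt11. Stmn4, near background, thus moved, and Bcl11b GE37936 went from 0.36 deposited to 0.193 with normexp. Stmn1, Stmn3 and Syt11 lay close to the deposited pair. The normexp intensities also had an offset of 50 and a new median scaling, and which step moved a probe was not tested. Where a call or sign moved in other settings, the cause was not tested.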
